A study of Mus musculus with 10 samples.

Results

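The precursors of classical neuropeptides were followed through 10 genes in the dentate gyrus of Fndc5 knockout and wild-type mice. The table lists them in capitals as PENK, PDYN, NPY, CCK, TAC1, TAC2, PNOC, ADCYAP1, CARTPT and GRP, and they are written below as Penk, Pdyn and so on. They were taken by name from the count table and make up 10 of its 24982 rows. All 10 passed the filter on low counts that left 14867 genes for testing. The table comes from bulk RNA sequencing of micro-dissected dentate gyrus, with 1 library per mouse. The groups were 5 wild types and 5 global knockouts of Fndc5 (F5KO), the gene of the membrane protein from which the hormone irisin is cleaved. Every mouse was a C57BL/6 male aged 10 weeks, with no treatment named. How the knockout allele was made, which part of the gene it removes and whether the mice were littermates were not found in the labels.

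Neuropeptides are cut out of larger precursor proteins by convertases inside dense-core vesicles, are released mostly during strong firing, and act through G-protein-coupled receptors, often at some distance from the release site. In the dentate gyrus, granule neurons are known for dynorphin and enkephalin in their mossy fibres, and for changes in these and other peptides after seizures or prolonged activity. Neuropeptide Y and cholecystokinin are textbook markers of separate classes of hippocampal GABAergic interneurons. Many peptide genes carry a cyclic AMP response element (CRE), bound by CREB, close to their transcription start.

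Libraries held between 26226375 and 43802079 counts. Levels are in CPM, a gene's count relative to the total of its library, with totals scaled by the TMM method. Fndc5 itself spanned 69.2 to 80.3 CPM across wild types and 45.4 to 56.7 CPM across knockouts, so the groups did not overlap. Its log2 fold change was -0.55 (SE 0.057, adjusted p 0.000495, edgeR quasi-likelihood test). It was the only 1 of 14867 genes tested, or 0.00673%, to pass an adjusted p of 0.05, the threshold used throughout. Fold changes are knockout over wild type.

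Promoter stretches of 4 genes are shown because they hold the CRE letters through which peptide genes are classically coupled to neuronal activity. The RefSeq promoter set (GRCm38.p6; 250 bases before to 50 after a start) had 9 windows for 7 of the 10 genes: Pdyn, Npy, Cck, Tac1, Tac2, Cartpt and Adcyap1. Each line runs 5′ to 3′ on the gene's strand, with capitals on the matched motifs: the full CRE TGACGTCA, its half-site TGACG, the CRE-like variant TGCGTCA, the AP-1 motif TGANTCA and the E-box CACGTG, searched on both strands.
Cartpt: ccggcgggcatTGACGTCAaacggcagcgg
Cck: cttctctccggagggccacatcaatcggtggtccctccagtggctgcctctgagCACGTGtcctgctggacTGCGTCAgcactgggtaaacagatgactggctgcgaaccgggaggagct
Tac1: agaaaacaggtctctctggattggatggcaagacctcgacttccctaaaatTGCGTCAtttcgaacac
Adcyap1: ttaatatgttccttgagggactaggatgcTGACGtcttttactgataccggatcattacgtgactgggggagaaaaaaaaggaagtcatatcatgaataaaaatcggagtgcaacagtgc

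The Cartpt stretch lies at chr13:99900777-99900806 on the minus strand, and its full CRE spans positions -112 to -105, where -1 is the base before the RefSeq start. An upstream GENCODE exon of Cartpt covers that stretch. The Cck stretch is chr9:121495695-121495814 (minus strand), with the E-box at -66 to -61 and the CRE-like variant at -49 to -43. The Tac1 stretch is chr6:7554811-7554878 (plus strand), with the variant at -199 to -193. Tac1 holds a further half-site at -43 to -39 and an E-box at -61 to -56, outside the printed part. The Adcyap1 stretch is chr17:93198897-93199016 (plus strand), with a half-site at -91 to -87. A full CRE was present in 1 of the 7 genes and in 1.79% of 32851 mouse windows, and a half-site, which the full CRE and the variant also contain, in 4 of 7 genes and 20.8% of windows. The CRE-like variant was in 2 genes (2.12% of windows), the E-box in 2 (7.15%) and the AP-1 motif in 0 (7.81%). These matches describe letters only and show no binding.

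Per kilobase of exon, the 10 precursors spanned a wide range of levels in wild-type mice. Cck, which encodes cholecystokinin, was highest at 91.5 ± 4.18 CPM per kilobase, followed by Npy at 59.3 ± 2.33 (mean ± SD, n = 5 for each value of this kind). Pdyn, the prodynorphin gene, was at 14.4 ± 0.672 CPM per kilobase, and Penk, the proenkephalin gene, at 11.04 ± 1.84. Each of these 4 was above the next in all 5 wild-type mice, without overlap of ranges.

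Below them Grp, the gastrin-releasing peptide gene, was at 3.12 ± 0.857 CPM per kilobase. Pnoc, which encodes the precursor of nociceptin, was at 1.94 ± 0.288, and Adcyap1, which encodes the peptide PACAP, at 1.44 ± 0.351. Tac1, the substance P and neurokinin A gene, followed at 1.07 ± 0.183, and Cartpt, the CART peptide gene, at 0.840 ± 0.0929. From Grp down to Cartpt each neighbour overlapped the next in range, although Adcyap1 was above Tac1 in all 5 wild-type mice. Only neighbours were compared, so this does not cover genes further apart in that part of the order. Tac2, the neurokinin B gene, was lowest at 0.599 ± 0.144 CPM per kilobase and did not overlap Cartpt.

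With the longest transcript as the length instead, Cck was at 149.4 CPM per kilobase and Tac1 at 1.85. Tac2 was then at 0.969 CPM per kilobase, above Cartpt at 0.866, and Tac1 stood above Adcyap1 at 1.60. Among the genes tested, Cck stood at percentile 97.9 and Npy at percentile 96.1 of wild-type levels per kilobase, while Tac2 stood at percentile 14.8. Cck alone made up 49.3% to 55.5% of the summed CPM of the 10 genes in single libraries.

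**Figure D1:**
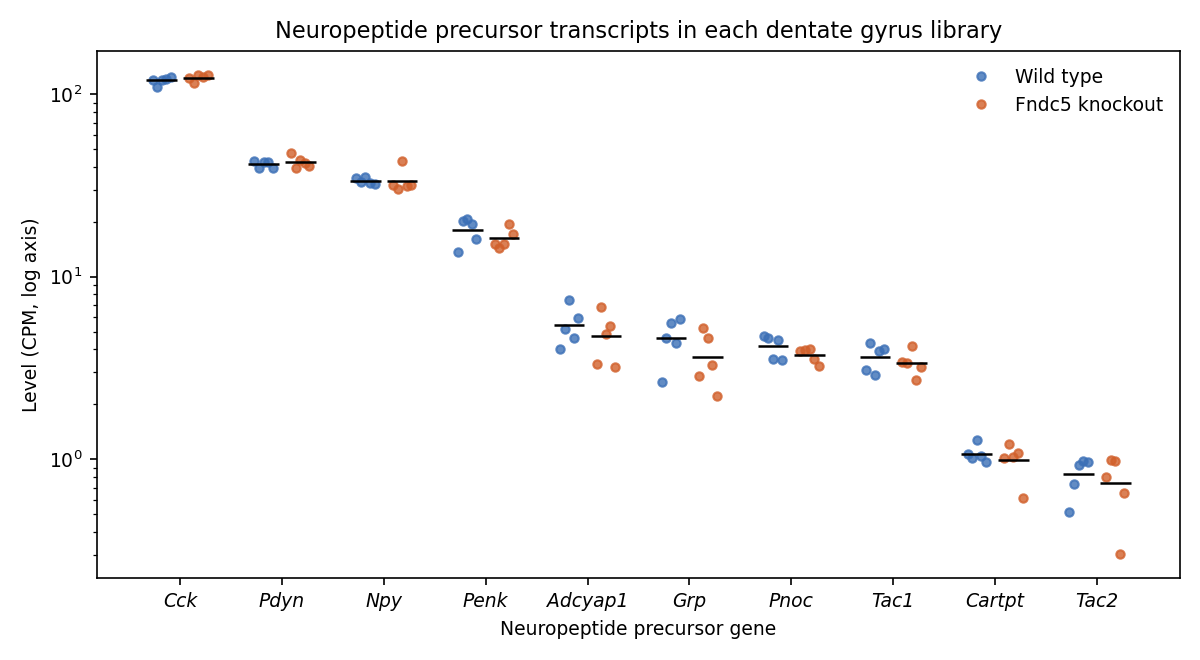
Level of each precursor gene (CPM, log axis) in the 5 wild-type and 5 Fndc5 knockout libraries; points are mice and bars are group means. The groups overlap for all 10 genes, and knockout mouse 3 stands above the other mice for Npy at 42.8 CPM.

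The genotype comparison asks whether the loss of Fndc5 goes with another output of peptide messengers in this tissue. None of the 10 genes passed the threshold in edgeR, and 0 had an unadjusted p under 0.05, against 6.29% of all genes. The DESeq2 Wald test and limma-voom also called 0 of the 10. Knockout and wild-type libraries overlapped for all 10 genes, where 0.895% of all genes had groups that did not overlap. Fold changes were below 0 for 7 of the 10 genes, beside 49.3% of all genes tested, and the median was -0.13 against 0.0016 for all genes. That median was -0.06 without wild-type mouse 3, and -0.08 without knockout mouse 4 or without knockout mouse 5. Summed over the 10 genes, wild types reached 232.2 ± 6.59 CPM and knockouts 233.0 ± 10.1 CPM (n = 5 each; exact two-sided permutation p 0.889). In bulk tissue, fewer cells of a type and less RNA per cell cannot be told apart.

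**Figure D2:**
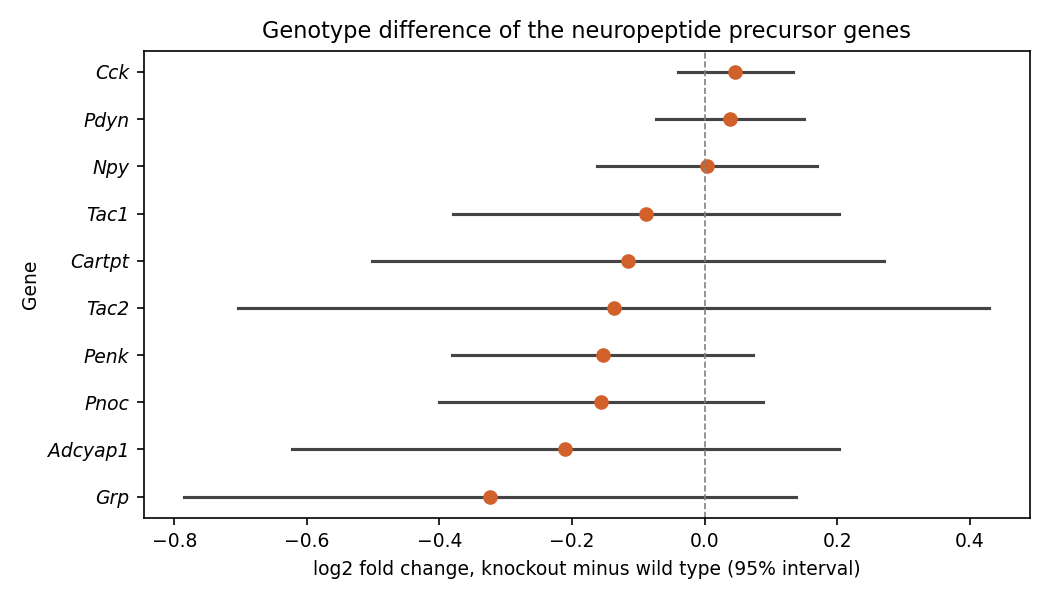
Log2 fold change (knockout minus wild type) of each precursor gene with its 95% interval from edgeR, n = 5 mice per genotype. All intervals include 0; those of Cck, Pdyn and Npy are the narrowest and that of Tac2 is the widest.

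The opioid precursors came first in the comparison. Pdyn lies on chromosome 2 from 129686565 to 129699844 (GRCm38, GENCODE M21, as for all gene positions here) and gives the dynorphins, which act mainly on the kappa receptor. Wild types spanned 39.4 to 43.3 CPM and knockouts 39.6 to 47.5 CPM, with 2 knockouts above the highest wild type. Its log2 fold change was 0.04 (SE 0.053), and the 95% interval placed the knockout between 95.1% and 111.0% of the wild-type level.

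Penk (chromosome 4, 4133531 to 4138819) gives the enkephalins, ligands of the delta and mu receptors. Its wild-type mice 1 to 5 were at 13.7, 20.1, 20.7, 19.6 and 16.2 CPM. The knockouts 1 to 5 were at 15.2, 14.4, 15.1, 19.5 and 17.2 CPM. The wild types 2, 3 and 4 lay above every knockout, while wild-type mouse 1 lay below all of them. For Penk the log2 fold change was -0.15 (SE 0.11, edgeR adjusted p 0.818; exact permutation p 0.325), and single libraries moved it both ways. It was -0.24 (SE 0.090, adjusted p 0.683) without wild-type mouse 1 and -0.10 (SE 0.11, adjusted p 0.917) without wild-type mouse 3. Penk exons share 233 bases with the antisense transcript A830012C17Rik, and no source used here states the strand setting of the counting.

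Pnoc (chromosome 14, 65400673 to 65425472) averaged 4.18 ± 0.622 CPM (wild type) and 3.73 ± 0.338 CPM (knockout, n = 5 each). Its log2 fold change was -0.16 (SE 0.12), with 1 knockout below the lowest wild type. Pomc, the opioid family precursor best known from the pituitary, averaged 0.876 CPM (wild type) and 0.910 CPM (knockout), with 8 to 61 counts per library. Its log2 fold change was 0.09 (SE 0.40).

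Npy and Cck had close group means. Over the 10 libraries, with genotype means removed, Pearson's r with the mean of interneuron markers was -0.16 for each. Npy (chromosome 6, 49822710 to 49829507) encodes a peptide that dampens glutamate release in the hippocampus. Its wild types 1 to 5 were at 34.7, 33.2, 35.2, 32.6 and 32.1 CPM. The knockouts 1 to 5 were at 31.7, 30.4, 42.8, 31.2 and 32.0 CPM. Knockouts 1, 2, 4 and 5 thus lay just below every wild type and knockout mouse 3 lay above all of them.

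Over all libraries the log2 fold change of Npy was 0.0038 (SE 0.079; exact permutation p 0.960). Without knockout mouse 3 it was -0.10 (SE 0.047), with an unadjusted p of 0.0462 and an edgeR adjusted p of 0.984. The other 4 knockouts averaged 31.3 ± 0.716 CPM (SD), against 33.6 ± 1.32 CPM in the 5 wild types. Npy was not alone in an unadjusted edgeR p under 0.05 once a library was left out. For Penk it was 0.0171 without wild-type mouse 1 and 0.0488 without knockout mouse 4. For Grp it was 0.0245 without wild-type mouse 1 and 0.0423 without knockout mouse 2. None of these passed after adjustment. In knockout mouse 3 the mean of 20 interneuron markers was -0.20 on the log2 scale, relative to the wild-type mean, and the other knockouts ranged from -0.21 to -0.0089. That mouse was also the lowest knockout for choroid plexus and meningeal markers (-0.35, the others 0.04 to 0.25), astrocyte markers (-0.11, the others 0.01 to 0.05), microglia markers (-0.09, the others -0.0079 to 0.09) and oligodendrocyte markers (-0.10, the others -0.08 to 0.19).

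Among 110 pairs of the 10 genes with marker lists, compared after the data were seen, Npy ran opposite to several glial and non-neural lists, and none of the 110 passed after adjustment. With choroid plexus and meningeal markers r was -0.83 (exact permutation p 0.00257; rho -0.78, exact permutation p 0.00153; adjusted p 0.255 and 0.141), at -0.82 within wild types and -0.96 within knockouts. Folr1 and Clic6, of the 11 choroid plexus and meningeal markers, did not pass the low-count filter. Among the rest, Lum, Dcn and Aqp1 averaged 2.68, 2.89 and 0.545 CPM in wild types, and Kl 29.2 CPM. The r with this list was -0.81 without wild-type mouse 3 and knockout mouse 3. With astrocyte markers r was -0.88 (exact permutation p 0.0177; rho -0.65, exact permutation p 0.0358; adjusted p 0.325 and 0.632), and -0.47 without the same mice, so that relation rests on them. With microglia markers r was -0.71 (exact permutation p 0.0372; rho -0.67, exact permutation p 0.0281; adjusted p 0.353 and 0.619), and -0.38 without them.

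Cck (chromosome 9, 121489824 to 121495694) averaged 119.4 ± 5.46 CPM (wild type) and 123.3 ± 5.33 CPM (knockout, n = 5 each). Cck had a log2 fold change of 0.05 (SE 0.041; 0.02 without wild-type mouse 2 and 0.07 without knockout mouse 2), and 2 knockouts lay above the highest wild type. The interval placed the knockout between 97.2% and 109.7% of wild type, the tightest bound among the 10 genes.

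The tachykinin genes were low and did not separate the genotypes. Tac1 (chromosome 6, 7554879 to 7565834) averaged 3.65 ± 0.621 CPM (wild type) and 3.38 ± 0.527 CPM (knockout, n = 5 each), with a log2 fold change of -0.09 (SE 0.14). That value was -0.02 without wild-type mouse 2 and -0.18 without knockout mouse 3. Tac2 (chromosome 10, 127724478 to 127731768), a strong marker of the medial habenula elsewhere in the brain, had 9 to 41 counts per library. Its wild types ranged from 0.517 to 0.977 CPM and its knockouts from 0.303 to 0.986 CPM. Its log2 fold change was -0.14 (SE 0.27), and without knockout mouse 4, the lowest library, it was 0.06. Without wild-type mouse 1 it was -0.27. Of 11 thalamus and habenula markers, the habenular genes Gpr151, Chrnb4, Chrna3 and Pou4f1 did not pass the low-count filter. Summed, those 11 markers spanned 125.1 to 140.4 CPM across wild types and 124.4 to 146.2 CPM across knockouts.

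The largest fitted differences belonged to Grp and Adcyap1, and neither passed. Grp encodes a peptide of the bombesin family. The wild types 1 to 5 were at 2.65, 4.64, 5.59, 4.31 and 5.83 CPM. The knockouts 1 to 5 were at 2.86, 5.22, 4.64, 3.30 and 2.23 CPM. Both genotypes held low and high mice, with wild-type mouse 1 near the lowest knockouts. The log2 fold change of Grp was -0.32 (SE 0.22, edgeR adjusted p 0.807; exact permutation p 0.294), and the interval reached from 58.0% to 110.0% of wild type. Without wild-type mouse 1 it was -0.47 (adjusted p 0.683), without knockout mouse 2 it was -0.48 (adjusted p 0.593) and without knockout mouse 5 it was -0.20.

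Adcyap1 (chromosome 17, 93199017 to 93206537) encodes PACAP, a peptide that raises cyclic AMP through its receptor PAC1. The wild types 1 to 5 were at 4.01, 5.17, 7.44, 4.62 and 5.94 CPM. The knockouts 1 to 5 were at 3.34, 6.83, 4.87, 5.36 and 3.19 CPM. Knockout mice 1 and 5 were lower than every wild type, and the other 3 lay within the wild-type range. Adcyap1 had a log2 fold change of -0.21 (SE 0.19, edgeR adjusted p 0.870), moving to -0.38 without knockout mouse 2, to -0.11 without knockout mouse 5 and to -0.05 without wild-type mouse 3.

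Cartpt (chromosome 13, 99898489 to 99901091) averaged 1.07 ± 0.119 CPM (wild type) and 0.992 ± 0.224 CPM (knockout, n = 5 each), with 16 to 56 counts per library. Its log2 fold change was -0.12 (SE 0.18). It was 0.0013 without knockout mouse 5, the lowest library at 0.616 CPM. The 4 genes with a CRE half-site had log2 fold changes between -0.21 and 0.05, and the 3 genes with a promoter window and no half-site had values between -0.14 and 0.04.

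Among immediate early and other activity-induced genes, 24 of 25 had fold changes below 0, beside 49.3% of all genes tested, with a median of -0.18. In the main edgeR fit 0 passed the threshold. In it 13 had an unadjusted p under 0.05, beside 6.29% of all genes. This list was chosen with earlier results of these data known. Fosb, an AP-1 subunit, was at -0.51 (SE 0.10) and Npas4, a transcription factor induced by calcium entry, at -0.76 (SE 0.15). Both had an edgeR adjusted p of 0.560 in the main fit, and the DESeq2 Wald test called both. Npas4 was also called by edgeR with the mouse number as a block and without wild-type mouse 1, and in no other edgeR alternative. A list of peptide gene regulators was built around CREB and AP-1 and also held the repressor gene Rest. Of its 13 tested members, 9 were above 0, with a median of 0.03. Among them Crtc2, a CREB coactivator, was at 0.12 (SE 0.043) and Rest, a repressor of neuronal genes, at 0.29 (SE 0.12), neither past the threshold.

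Known receptors of these peptides, 18 genes, were measured in the same libraries, and 11 passed the low-count filter. Of those 11, 5 had fold changes above 0 and 6 below, 0 passed the threshold, and the median was -0.01. Adcyap1r1, the PACAP receptor PAC1, was the highest at 56.7 CPM per kilobase in wild types, while its ligand gene Adcyap1 was at 1.44. The neuropeptide Y receptors Npy2r and Npy1r were at 20.9 and 17.6 CPM per kilobase, and Npy5r at 5.12.

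Oprl1, the nociceptin receptor, was at 7.60 CPM per kilobase and the delta receptor Oprd1 at 2.99. The kappa receptor Oprk1 had 1 to 16 counts per library and the mu receptor Oprm1 1 to 11, both close to the lowest counts measured. Cckbr, the brain cholecystokinin receptor, was at 2.39 CPM per kilobase and Cckar had 0 to 2 counts per library. The Grp receptor gene Grpr had 3 to 13 counts per library and the tachykinin receptor Tacr1 24 to 48. Cckbr had a log2 fold change of 0.13 (SE 0.088), Vipr1, which also binds PACAP, 0.07 (SE 0.051), Npy5r -0.09 (SE 0.068) and Adcyap1r1 0.06 (SE 0.045).

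**Figure D3:**
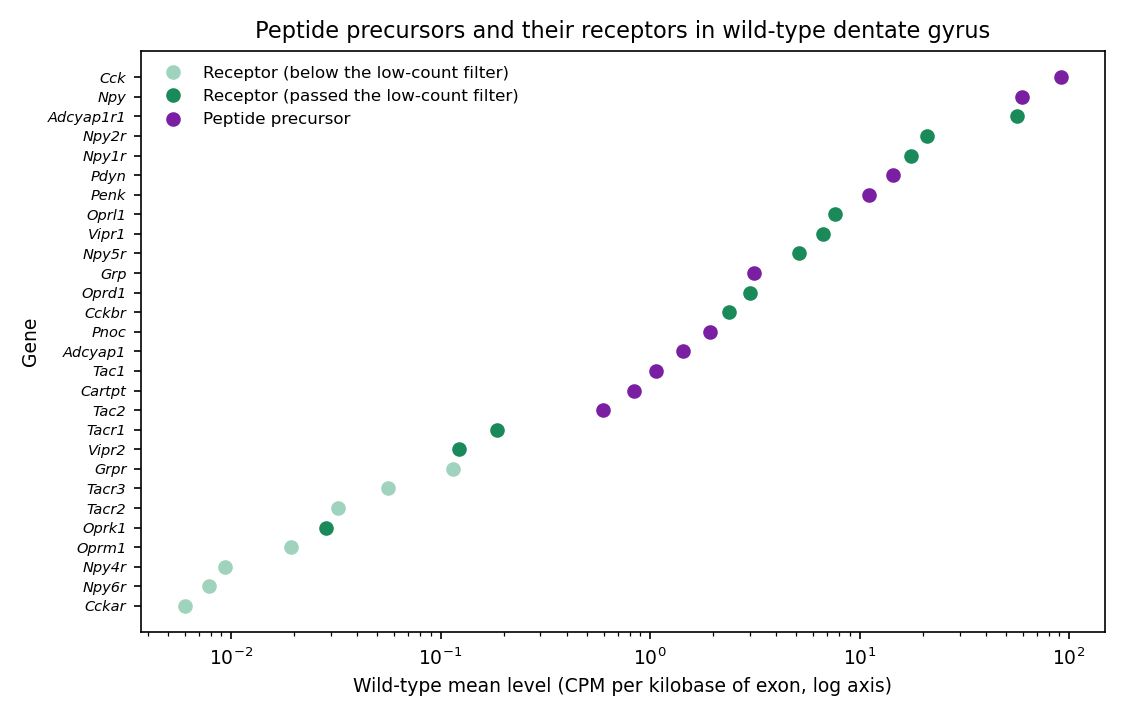
Wild-type mean level (CPM per kilobase of exon, log axis, n = 5 mice) of the 10 peptide precursors and the 18 genes of their receptors. Adcyap1r1 at 56.7 stands above its ligand gene at 1.44, while Pdyn at 14.4 stands above Oprk1 at 0.0285.

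The machinery that turns precursors into peptides showed 0 called genes. Processing and sorting genes were below 0 for 9 of 14 tested members (median -0.02). Cadps, a priming factor of dense-core vesicles, was at -0.12 (SE 0.041), the convertase Pcsk1 at -0.20 (SE 0.11), its inhibitor Pcsk1n at 0.12 (SE 0.059) and the amidating enzyme Pam at -0.06 (SE 0.034). Peptide-degrading enzymes were above 0 for 6 of 11 (median 0.04). Anpep, aminopeptidase N, was at -0.35 (SE 0.15), Thop1 at 0.07 (SE 0.049), neprilysin (Mme) at -0.16 (SE 0.15) and Prep at 0.04 (SE 0.047).

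Granins and other dense-core vesicle cargo were below 0 for 7 of 8, with a median of -0.04. Scg2 was at -0.12 (SE 0.043), Vgf at -0.10 (SE 0.049), Ptprn2 at -0.06 (SE 0.048) and Chga at -0.03 (SE 0.047). Other neuropeptide precursors passed the low-count filter for 12 of 29 genes, and 7 of the 12 were below 0 (median -0.06). Vip, a peptide of interneurons that inhibit other interneurons, was at -0.30 (SE 0.13), Edn1 at -0.34 (SE 0.27), Nppc at 0.27 (SE 0.21) and Sst, the somatostatin gene, at -0.09 (SE 0.083). Nmu, Tac4 and Ucn3 were at 0 counts in all 10 libraries.

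Peptide genes differed widely in how much they varied between mice of 1 genotype. The SD of log2 CPM within genotypes was 0.51 for Tac2, 0.47 for Grp and 0.40 for Adcyap1, which placed them at percentiles 98.3, 97.5 and 95.4 of all genes tested. Counting error alone gives an SD of about 0.31 for Tac2, 0.13 for Grp and 0.12 for Adcyap1 at their counts. Grp and Adcyap1 thus varied by over 3 times their counting error. An excess over counting error was not particular to them. Penk varied by 0.22 with a counting error of 0.063, Npy by 0.15 with 0.045 and Cck by 0.065 with 0.024. Cartpt varied by 0.27, close to its counting error of 0.26.

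At the other end, Cck varied by 0.07 (percentile 21.3) and Pdyn by 0.09 (percentile 39.2), against a median of 0.10 for all genes. Penk, at 0.22, stood at percentile 81.4. Npy was at percentile 68.1 with all libraries and at percentile 8.71 without knockout mouse 3.

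**Figure D4:**
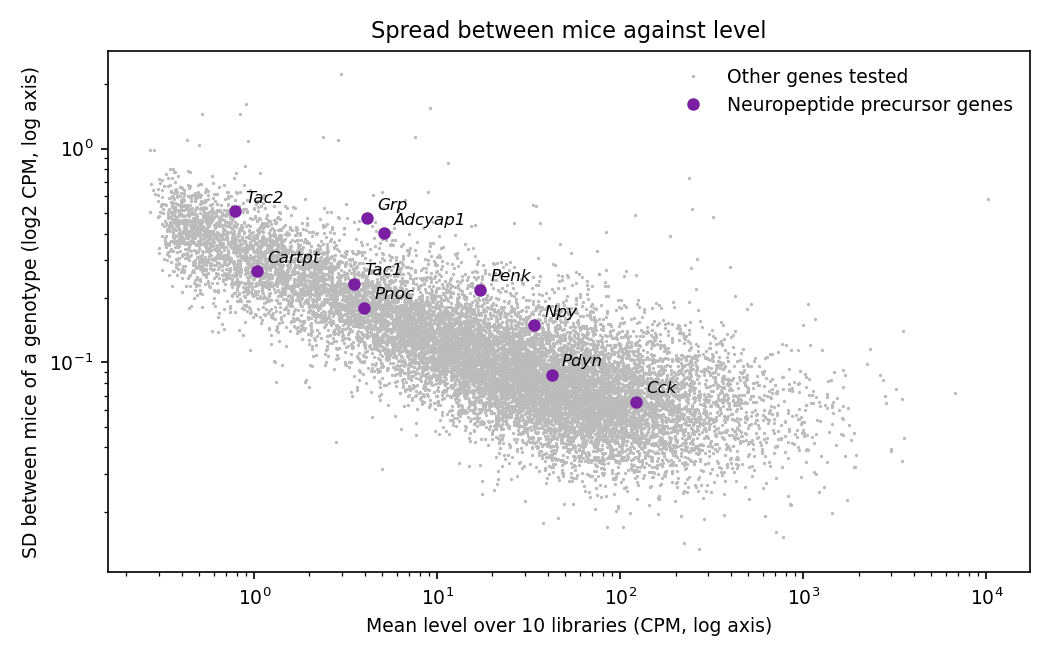
SD of log2 CPM between mice of a genotype (log axis) against mean level (CPM, log axis) for the 10 precursor genes and all other genes tested. Grp and Adcyap1 sit above most genes of their level, at SDs of 0.47 and 0.40, while Cck and Pdyn sit at 0.07 and 0.09.

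Grp and Adcyap1 also varied together. Over 10 libraries, with genotype means removed, Pearson's r was 0.86 (exact permutation p 0.00556, adjusted p 0.250 over 45 pairs of the 10 genes) and Spearman's rho was 0.77 (exact permutation p 0.0357, adjusted p 0.535). The value was 0.86 within wild types and 0.87 within knockouts, and 0.77 without knockout mice 2 and 5, the libraries farthest from the median of Adcyap1. No pair passed after adjustment, and 2 of 45 had an unadjusted exact p under 0.05. The other pair was Adcyap1 with Cartpt (r 0.69, exact permutation p 0.0317; rho 0.70, exact permutation p 0.0254; adjusted p 0.714 and 0.535), at 0.45 without the same mice. Across all 45 pairs r ranged from -0.51 to 0.86 with a median of 0.02, so the peptide genes as a set did not rise and fall together.

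Hilar mossy cells, excitatory neurons beneath the granule layer, are known to express Calb2 in the mouse. Summed, 6 mossy cell markers spanned 93.7 to 124.3 CPM across wild types and 89.3 to 122.8 CPM across knockouts, and all 6 passed the low-count filter. In the comparison with marker lists, Adcyap1 followed the mean of these markers (r 0.85, exact permutation p 0.00778; rho 0.92, exact permutation p 0.00257; adjusted p 0.255 and 0.141 over the 110 pairs), with r 0.71 without knockout mice 2 and 5. Its r was 0.56 within wild types and 0.99 within knockouts. Adcyap1 with this marker mean was 1 of 13 pairs with an unadjusted exact p under 0.05. Calb2, also an interneuron marker, was 1 of the 6 and spanned 31.5 to 53.4 CPM across wild types and 17.8 to 50.6 CPM across knockouts.

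Adcyap1 and Calb2 had an r of 0.93 (exact permutation p 0.000347, adjusted p 0.00556 over 16 pairs of Adcyap1 or Grp with mossy cell genes) and a rho of 0.93 (exact permutation p 0.00146, adjusted p 0.0206). The r was 0.94 within each genotype and 0.93 without knockout mice 2 and 5. These 16 pairs were chosen after the first relation was seen among the 110 pairs, so their adjusted p values do not account for that choice. They also include the marker mean, which itself holds Calb2. The other markers did not all follow: r with Adcyap1 was 0.85 for Csf2rb2, 0.74 for Cntn6, 0.48 for Drd2, -0.05 for Ajap1 and -0.42 for Calcrl. For Grp the same 5 genes gave 0.75, 0.62, 0.17, -0.10 and -0.29. Within wild types r with Adcyap1 was 0.67 for Csf2rb2 and 0.06 for Cntn6, and within knockouts 0.96 and 0.98. Without Calb2 the marker mean gave r 0.68 (exact permutation p 0.0541; rho 0.65, exact permutation p 0.0748), with 0.22 within wild types and 0.99 within knockouts. Grp and Calb2 had an r of 0.82 (exact permutation p 0.00681, adjusted p 0.0353) and a rho of 0.77 (exact permutation p 0.0293, adjusted p 0.117). That r was 0.65 within wild types, 0.94 within knockouts and 0.80 without wild-type mouse 1 and knockout mouse 5.

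**Figure D5:**
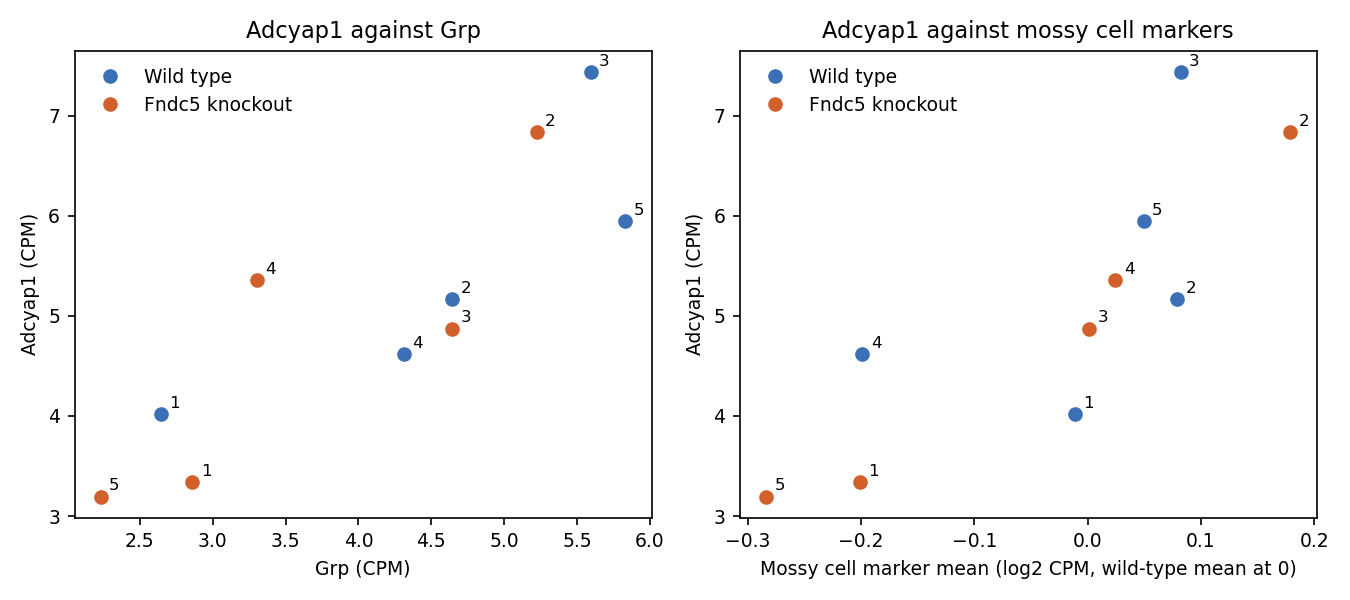
Adcyap1 (CPM) against Grp (CPM, left) and against the mean of 6 mossy cell markers (log2 CPM relative to the wild-type mean, right) in 10 libraries; numbers are mouse numbers. Knockout mouse 5 is low and wild-type mouse 3 is high for both peptide genes, and mice of both genotypes lie along the same range.

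Markers of other cell types were set beside the 10 genes. Interneuron markers were below 0 for 18 of 20 (median -0.11) with 0 called, and the median was -0.06 without wild-type mouse 1. Their summed level spanned 1289 to 1534 CPM across wild types and 1227 to 1370 CPM across knockouts. Granule neuron markers were above 0 for 8 of 12 (median 0.04), at 2615 to 3048 CPM and 2878 to 3066 CPM. Wild-type mouse 1, the lowest wild type for Penk, Tac2, Adcyap1 and Grp, had the highest interneuron mean (0.25 on the log2 scale) and the lowest granule mean (-0.15). It also had the largest share of counts in the ribosomal RNA precursor row, at 1.85%, with 0.60% to 1.38% in the other libraries. Markers of the striatum, where Penk, Pdyn and Tac1 are abundant, were below 0 for 5 of 7 tested; summed over 8 genes they spanned 198.4 to 239.5 CPM across wild types and 199.6 to 239.2 CPM across knockouts.

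Penk varied with several of these lists among the same 110 pairs, again with none past adjustment. With interneuron markers r was -0.83 (exact permutation p 0.00965; rho -0.65, exact permutation p 0.0742; adjusted p 0.255 and 0.632), at -0.94 within wild types and -0.56 within knockouts. It was -0.73 without wild-type mouse 1 and knockout mouse 4. With striatum markers r was 0.82 (exact permutation p 0.00792; rho 0.76, exact permutation p 0.0243; adjusted p 0.255 and 0.619), and 0.82 without the same mice.

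Oligodendrocyte markers gave r 0.78 with Penk (exact permutation p 0.0116; rho 0.66, exact permutation p 0.0487; adjusted p 0.255 and 0.632), and 0.59 without those mice. Granule markers gave r 0.74 with Penk (exact permutation p 0.0283; rho 0.50, exact permutation p 0.182; adjusted p 0.353 and 0.863), but 0.99 within wild types and -0.05 within knockouts. Grp and granule markers had r 0.68 (exact permutation p 0.0297; rho 0.59, exact permutation p 0.065; adjusted p 0.353 and 0.632), and 0.31 without wild-type mouse 1 and knockout mouse 5, so that relation rests on them. Adcyap1 with granule markers (r 0.61) and with CA1 to CA3 markers (r -0.63) also had an unadjusted exact p under 0.05. The remaining such pairs were Cartpt (r 0.69) and Grp (r 0.69) with mossy cell markers. For Cartpt that r was 0.20 within wild types, 0.83 within knockouts and 0.22 without knockout mice 2 and 5. For Grp it was 0.32 within wild types, 0.92 within knockouts and 0.74 without wild-type mouse 1 and knockout mouse 5.

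Among all genes tested, predicted genes and pseudogenes left out, those most like each peptide gene over the 10 libraries (genotype means removed) were found by Pearson's r, as a description of these libraries only. They were Top2a (0.97) and Car15 (0.96) for Penk, Cx3cl1 (0.97) and Lrrc10b (0.95) for Cck, Rnf25 (0.95) and Ubap1 (0.94) for Npy, and Klhl21 (0.95) and Atp5g3 (0.94) for Pdyn. Capn3 (0.94) was most like Adcyap1, and Grhl1 (0.95) and Pot1a (0.94) were most like Grp. For Cartpt they were Chsy1 (0.96) and Zfp57 (0.95), and for Pnoc, Tac1 and Tac2 the values lay between 0.88 and 0.92.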

How the data were processed

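The deposited table holds raw counts per gene symbol, with no normalization by the authors. The submitters' processing notes name STAR 2.5.1b, Cufflinks 2.2.1 and build mm10 without a role. Stranded poly(A) libraries from 500 ng of RNA were sequenced as single 75-base reads, per the labels' protocols. Groups come from the title of each mouse. Of 24982 symbols, 24917 matched a GENCODE M21 or RefSeq (GRCm38.p6) name. The closest libraries of 1 genotype differed beyond sampling noise (chi-square per degree of freedom 4.47).

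Genes were filtered with filterByExpr, scaled by TMM and tested with edgeR 4.0.16 (glmQLFit, glmQLFTest; R 4.3.3), with Benjamini-Hochberg adjustment over 14867 genes. Log2 CPM used a prior count of 2. Single values were compared by exact two-sided permutation (252 assignments, smallest p 0.00794), correlations by exact permutation within genotypes (14400 arrangements). Levels per kilobase use the exon union in GENCODE M21. The main edgeR fit was tested on simulated data. Alternatives were DESeq2 1.42.0, limma-voom (limma 3.58.1), upper-quartile scaling, other filters, the mouse number as a block, GC content and length correction, removal of the ribosomal RNA precursor row, and each library left out. Genes named are Fndc5, the 10 members, up to 4 genes of each list with the smallest p, and the 2 genes most like each member, of which 1 is not reported here; Calb2 and receptor and marker genes named for their level were chosen after their values were seen. Members and lists were chosen with earlier results of these data known. Lists are described by counts and medians, with no test.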

Additional observations from a re-analysis of the deposited data

Results flagged for a closer look

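A search for a library lying far from its group covered 22 groups of 5 values (each of the 10 genes and their sum in each genotype); it found 1, where chance gives about 1.1 (1 in 20 groups). Npy was at 42.85 CPM in knockout mouse 3, while the other knockouts lay between 30.4 and 32.0 CPM. The gap took up 0.87 of the range of the group, above the critical value of 0.71 for 5 values.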

How the results depend on the processing

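None of the 10 genes passed the threshold in any of 18 alternatives; the smallest adjusted p was 0.528, for Grp with the replicate block, and 6 to 8 of the 10 had fold changes below 0. The count of all genes past the threshold was 1 with edgeR, 3 with the DESeq2 Wald test, 8 with the replicate block, and 1 to 3 in the leave-one-out fits (3 lacking wild-type mouse 1, 2 lacking knockout mouse 2). The log2 fold change of Npy turned sign after GC content and length correction (-0.0309), with limma-voom (-0.0062) and under the replicate block (-0.0025); leave-one-out fits gave -0.10 to 0.0392. Leaving out single libraries also turned the signs of Pdyn (-0.0028 to 0.0652), Cartpt (-0.20 to 0.0013) and Tac2 (-0.27 to 0.0568); the cause was not tested. No list median moved by more than the SD of the list mean between wild types in any of the 18 alternatives. That bound is loose: the SD was 0.12 for the 10 genes, whose median was -0.13. For the opioid precursors it was 0.27, and their median moved from -0.06 to -0.15 with the filter of 1 CPM. The median of the 10 genes ranged from -0.15 to -0.06 in the leave-one-out fits. Same-numbered mice correlated at 0.209, 0.204, 0.108, 0.00901 and 0.0282, not all above 0.1, so numbers were not used as pairs; as a hint, best partners were same-numbered for all but wild types 3 and 4 and knockouts 4 and 5. Depth limits Tac2 (9 to 41 counts per library), whose interval reached from 61.4% to 134.7% of wild type, and Cartpt (16 to 56 counts; 70.6% to 120.7%). Tac2 was not tested with the filter of 1 CPM.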
